A study of Mus musculus with 8 samples.

Results

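A panel of 9 genes used as markers of the resting hepatic stellate cell was followed in RNA-sequencing libraries of whole mouse liver: Lrat, Colec10, Colec11, Ecm1, Reln, Des, Cygb, Ngfr and Hand2. They were chosen by symbol and are 9 of the 34465 genes in the deposited table. All 9 had a signal above 0 in each of the 8 libraries, and all 9 passed the filter for testing, a mean signal of at least 1, which 16443 genes met. The libraries fall into 4 groups of 2. All mice were of strain 129S4/SvJae/FVB, were 3 months old and carried b-PDGFR fl/fl, that is, floxed alleles of Pdgfrb, which encodes a receptor for platelet-derived growth factor. Cre-positive mice also carried a GFAP-Cre transgene, and Cre-negative mice did not. Cre-positive and Cre-negative livers were taken 72 h after partial hepatectomy, in which part of the organ is removed and the remainder regrows, and Cre-positive and Cre-negative livers were taken after a sham operation. The labels describe the deletion as restricted to stellate cells. The driver is the GFAP promoter, which is also active in glia, and the assay reads the whole organ. In such samples fewer cells of a type and less RNA per cell cannot be told apart. Whether both libraries of a group came from separate animals is not in the labels, so p-values measure only the spread between these libraries, which may be technical.

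Stellate cells lie between the sinusoidal endothelium and the hepatocytes and, at rest, store vitamin A as retinyl esters in lipid droplets. After injury they can lose these stores and become matrix-producing myofibroblasts, a change called activation, in which signalling through the Pdgfrb receptor takes part. Several of the 9 genes are not exclusive to these cells. Hepatocytes also make Ecm1, lymphatic endothelium also makes reelin, and smooth muscle also makes desmin.

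The 250 bases before the annotated start were available from RefSeq (GRCm38.p6) for 7 of the 9 genes, and Colec10 and Cygb were not in that table. Those of Ecm1 and Lrat are shown because both genes were lower after hepatectomy in each library, and that of Reln because its level differed between genotypes after hepatectomy without overlap. Each is printed 5′ to 3′ on the gene's strand, and capitals mark matches, on either strand, to TATAAA (the TATA box), GGGCGG (the GC box) or CATCTG (an E-box bound by HAND2). A search for AGGTCA, the half-site of nuclear receptors, found no match in these 3 windows. None of the capitals overlap.
Ecm1 (chr3:95739570-95739819, minus strand): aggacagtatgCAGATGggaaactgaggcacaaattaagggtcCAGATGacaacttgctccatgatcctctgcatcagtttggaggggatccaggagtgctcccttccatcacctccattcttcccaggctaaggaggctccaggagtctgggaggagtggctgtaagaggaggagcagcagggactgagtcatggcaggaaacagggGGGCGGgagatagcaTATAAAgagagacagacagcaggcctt
Lrat (chr3:82903975-82904224, minus strand): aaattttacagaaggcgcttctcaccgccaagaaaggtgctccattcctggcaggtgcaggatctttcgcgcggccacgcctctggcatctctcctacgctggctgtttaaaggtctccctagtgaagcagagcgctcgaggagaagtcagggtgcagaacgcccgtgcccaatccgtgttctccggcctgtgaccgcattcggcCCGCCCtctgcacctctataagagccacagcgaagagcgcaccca
Reln (chr5:22344706-22344955, minus strand): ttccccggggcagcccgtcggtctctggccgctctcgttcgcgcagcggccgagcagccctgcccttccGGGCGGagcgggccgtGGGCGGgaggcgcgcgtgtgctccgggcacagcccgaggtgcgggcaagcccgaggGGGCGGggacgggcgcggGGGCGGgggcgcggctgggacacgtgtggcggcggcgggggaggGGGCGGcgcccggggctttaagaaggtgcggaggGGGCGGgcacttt
The Ecm1 window held 1 TATA box, 1 GC box and 2 E-boxes, at 54% GC. The Lrat window held 1 GC box at 59.2% GC, and the Reln window held 6 GC boxes at 80% GC. Over 32851 promoter windows of the same length, 12.4% held TATAAA, 32.7% held GGGCGG, 14.4% held CATCTG and 14% held AGGTCA. A match is a description of the letters and not a measured binding site.

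The values are a normalized signal with no read counts, so sequencing depth is unknown. Total signal lay between 8617664 and 11583780 per library. Cre-positive hepatectomy replicate 2 stood apart. On the log2 scale, its GC-poor genes were low and its GC-rich genes high relative to the sham mean: the median gene differed by -1.49 at a GC content under 40%, by -0.83 at 40 to 45% and by 0.66 at 55% or more. In the other hepatectomy libraries the GC-rich class stood at -0.11 (Cre-positive replicate 1), 0.61 and 0.40 (Cre-negative replicates 1 and 2). Among the 9 genes, the longest transcripts of Colec10 and Lrat have 40.9% and 42.0% GC, while those of Des, Ecm1, Cygb, Ngfr and Hand2 have between 56.5% and 59.3%. The median ratio between the replicates of a group over the 9 genes was 2.24 and 1.18 in hepatectomy livers, Cre-positive before Cre-negative, and 1.33 and 1.21 in sham livers in that order. Over all tested genes above 0 in both replicates, the ratio was 1.67 and 1.385 in hepatectomy livers and 1.163 and 1.171 in sham livers. Pdgfrb, the targeted gene, was at 63.1 and 99.9 in Cre-positive and 122.6 and 70.5 in Cre-negative hepatectomy libraries, against 59.4 and 46.0 in Cre-positive and 49.8 and 63.3 in Cre-negative sham libraries. Its log2 fold change between genotypes, averaged over operations, was -0.16 (limma, adjusted p = 0.85), so the genotype is taken from the labels. Signal of Gfap, the gene behind the Cre promoter, was 0.19 and 3.04, 7.35 and 4.66, 0.75 and 1.04, and 3.57 and 2.92 in those groups in the same order.

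**Figure D1:**
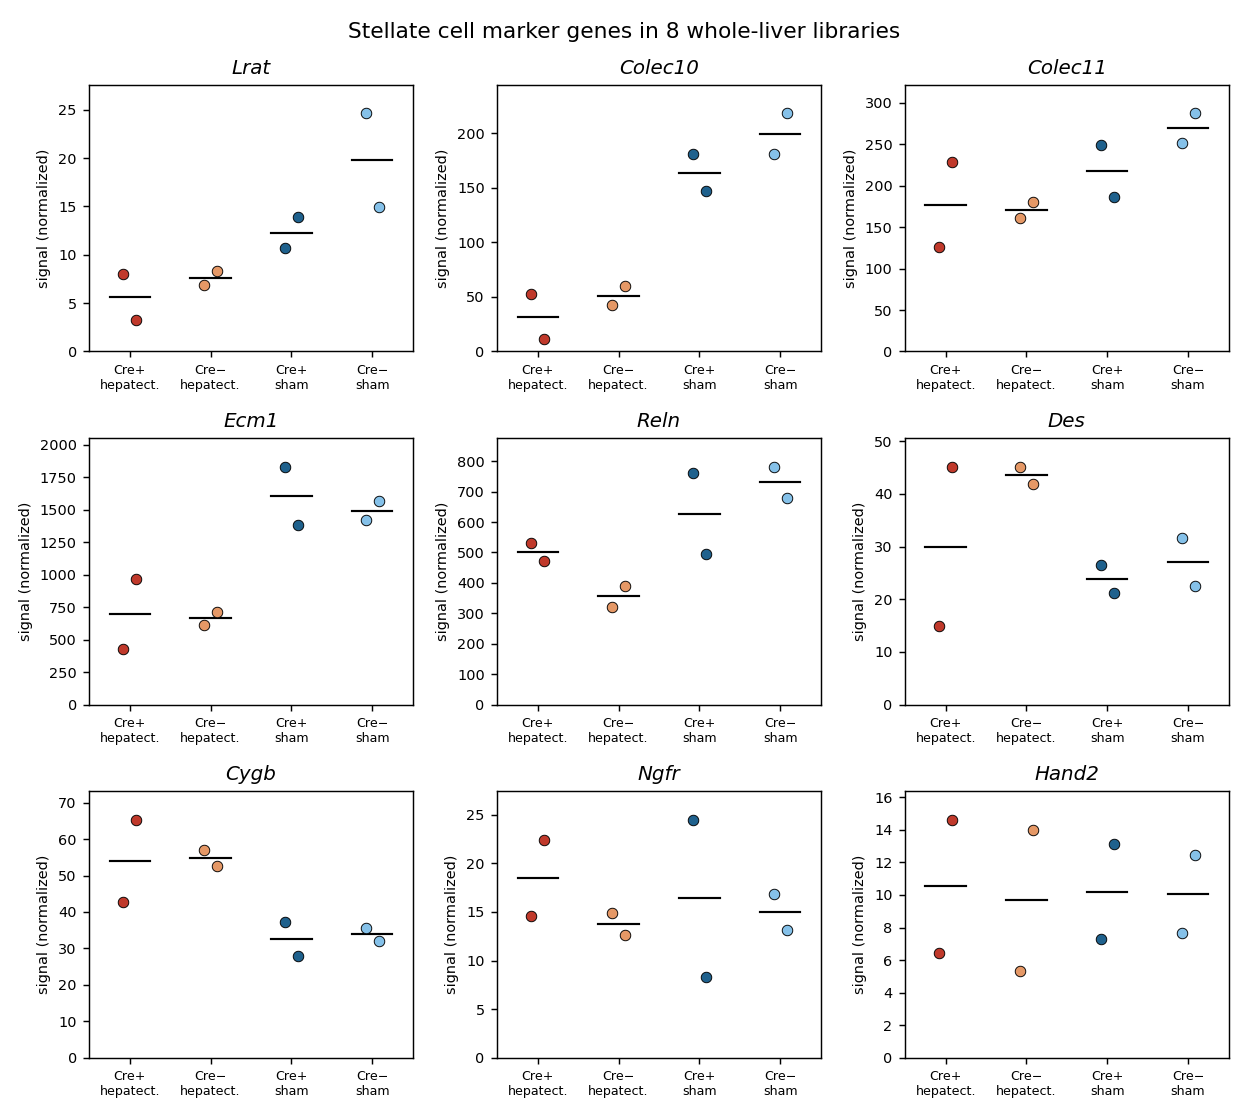
Signal (normalized, linear axis from 0) of the 9 genes in each of the 8 libraries, with 1 point per library and a line at the mean of each group of 2. Lrat, Colec10 and Ecm1 lie lower in all 4 hepatectomy libraries than in any sham library, Cygb lies higher in all 4, and the other 5 genes overlap.

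The comparison of hepatectomy with sham livers, averaged over both genotypes, asked how these markers stood during regrowth. The genes did not move as a block. Colec10 fell to 22.8% of its sham mean. Lrat and Ecm1 were lower in all 4 hepatectomy libraries than in any sham library without passing the test, and Cygb was higher in all 4. Ngfr and Hand2 showed little difference between group means. In the limma test on log2(signal + 1), with Benjamini-Hochberg adjustment over all 16443 genes and a threshold of 0.05, 1 of the 9 passed, against a background of 4.49% of all tested genes in either direction, 0.845% that fell and 3.64% that rose. At an unadjusted p under 0.05 there were 5 of 9, against 23.8% of all genes. Of the 9, 3 lay lower without overlap and 1 higher, against 6.2% and 11.2% of all genes. The median log2 fold change of the 9 was -0.50, and that of all genes was 0.12. Without Cre-positive hepatectomy replicate 1 the median of the 9 was -0.29 and that of all genes was 0.18. Without replicate 2 of that group the medians were -0.62 and 0.08. The count of 1 depended on the libraries: without Cre-positive hepatectomy replicate 1 it was 6 (Lrat, Des, Reln, Colec10, Ecm1 and Cygb), without replicate 2 of that group it was 2 (Colec10 and Ecm1), and without any one of the other 6 libraries it was 0. The calls over all 16443 genes moved with it: 32.7% passed without replicate 1, 6.16% without replicate 2, and 0.815% to 2.55% without one of the other 6.

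Lrat encodes lecithin retinol acyltransferase, the enzyme that esterifies retinol for storage. Its signal was 8.02 and 3.22 in Cre-positive and 6.88 and 8.31 in Cre-negative hepatectomy libraries, against 10.7 and 13.9 in Cre-positive and 24.6 and 14.9 in Cre-negative sham libraries. All 4 hepatectomy libraries were below all 4 sham libraries, and the highest value was Cre-negative sham replicate 1. The means were 6.61 ± 2.34 after hepatectomy and 16.0 ± 5.99 after sham (SD, n = 4 each). The log2 fold change was -1.17 (SE 0.34, 95% interval -1.97 to -0.37), which did not pass (limma, adjusted p = 0.108). By group mean, Cre-positive hepatectomy was lowest and overlapped Cre-negative hepatectomy, while Cre-positive sham and, highest, Cre-negative sham each lay apart from their neighbours.

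Around Lrat, the retinoid genes (30 listed with Lrat itself, 29 in the table, 26 tested) showed no common direction. In hepatectomy against sham, 1 rose and 0 fell by limma, 8 were at an unadjusted p under 0.05, and the median was 0.06. Over all tested genes, 23.8% were at an unadjusted p under 0.05 and the median was 0.12. The same background holds for each later list in this contrast. Of the 26, 16 had a positive and 10 a negative log2 fold change.

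Colec10 and Colec11 encode soluble collectins, which bind sugars on microbes and start the lectin pathway of complement. Colec10 was at 52.2 and 11.6 in Cre-positive and 42.2 and 59.9 in Cre-negative hepatectomy libraries, against 180.9 and 146.9 in Cre-positive and 180.9 and 218.1 in Cre-negative sham libraries. The groups did not overlap, and the lowest value belonged to Cre-positive hepatectomy replicate 2. The means were 41.5 ± 21.2 after hepatectomy and 181.7 ± 29.1 after sham (SD, n = 4 each). Colec10 fell by 2.31 on the log2 scale (SE 0.44, 95% interval -3.34 to -1.28, limma, adjusted p = 0.0343). Colec10 has lower GC than all but 8.36% of tested genes, the class in which Cre-positive hepatectomy replicate 2 was low. Without that library the log2 fold change was -1.79 (adjusted p = 0.0113), and with each library centred within bins of GC content it was -2.00 (adjusted p = 0.00466). Leaving out replicate 1 of the same group gave -2.83 (adjusted p = 0.00214). The call was lost without any one of the 4 sham libraries or either Cre-negative hepatectomy library (log2 fold changes -2.44 to -2.19, adjusted p between 0.0748 and 0.158). It was also lost with no filter on low signal (adjusted p = 0.0912).

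Colec11 had 125.7 and 228.1 in Cre-positive and 160.9 and 180.0 in Cre-negative hepatectomy libraries, against 249.6 and 185.9 in Cre-positive and 250.9 and 287.1 in Cre-negative sham libraries. Hepatectomy and sham libraries overlapped, through the higher Cre-positive hepatectomy and the lower Cre-positive sham library. Its log2 fold change of -0.50 (SE 0.24, 95% interval -1.06 to 0.06) did not pass (limma, adjusted p = 0.246), and with GC-bin centring it was -0.74 and passed (adjusted p = 0.0385). The means were 174 ± 42.7 after hepatectomy and 243 ± 42.1 after sham (SD, n = 4 each). In the lectin pathway list, 10 of 11 genes were tested, 0 rose and 2 fell, with a median of -0.15. The other gene that fell was Masp1, a serine protease that the collectins carry: 1076 and 834 in Cre-positive and 599 and 652 in Cre-negative hepatectomy libraries, against 1316 and 1398 in Cre-positive and 1239 and 1509 in Cre-negative sham libraries (log2 fold change -0.82, SE 0.17, limma, adjusted p = 0.0403).

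**Figure D2:**
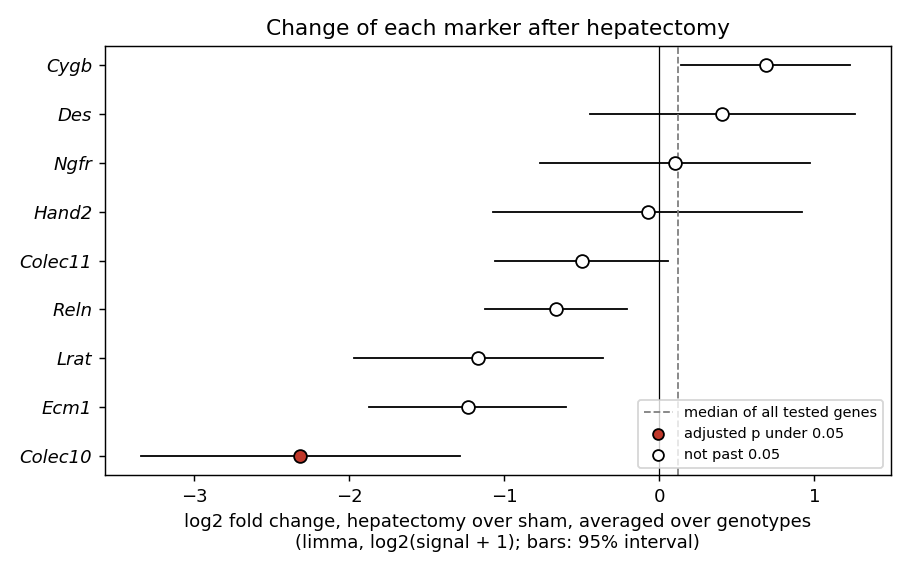
Log2 fold change of each gene, hepatectomy over sham, averaged over genotypes, with 95% intervals from limma and a dashed line at the median of all tested genes (0.12). Colec10 at -2.31 is the filled point that passed an adjusted p of 0.05, and the intervals of Ecm1, Lrat, Reln and Cygb leave out 0 without passing after adjustment.

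Ecm1 encodes extracellular matrix protein 1, a secreted glycoprotein that holds latent transforming growth factor beta inactive. Its signal was 432 and 969 in Cre-positive and 612 and 714 in Cre-negative hepatectomy libraries, against 1831 and 1386 in Cre-positive and 1420.2 and 1566 in Cre-negative sham libraries. The groups did not overlap, at 682 ± 224 after hepatectomy and 1551 ± 202 after sham (SD, n = 4 each). A log2 fold change of -1.24 was obtained (SE 0.27, 95% interval -1.87 to -0.60, limma, adjusted p = 0.0517), just outside the threshold. It passed in 5 of 16 other settings, among them the omission of either Cre-positive hepatectomy library (adjusted p = 0.00983 without replicate 1 and 0.00991 without replicate 2). Over all 16 settings it lay between -1.64 and -0.94 on the log2 scale. In the list of Ecm1, latent TGF-beta binding proteins and TGF-beta activators, 16 of 17 genes were tested, and 0 rose and 0 fell, with a median of 0.04 (2 at an unadjusted p under 0.05). Hspg2, the basement membrane proteoglycan perlecan, had a log2 fold change of 0.09 (adjusted p = 0.857).

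Reln encodes reelin, a large secreted glycoprotein that signals through the lipoprotein receptors Vldlr and Lrp8 and the adaptor Dab1. Its signal was 532 and 472 in Cre-positive and 322 and 389 in Cre-negative hepatectomy libraries, against 761 and 494 in Cre-positive and 782 and 679 in Cre-negative sham libraries. One Cre-positive sham library, at 494, lay below one Cre-positive hepatectomy library, so the operations overlapped. The means were 429 ± 92.2 after hepatectomy and 679 ± 131 after sham (SD, n = 4 each), with a log2 fold change of -0.67 (SE 0.20, limma, adjusted p = 0.108). Of the 12 reelin pathway genes, Reln included and all tested, 0 rose and 0 fell, with a median of -0.08. At an unadjusted p under 0.05 there were 5, Reln among them. Itgb1, the integrin beta 1 chain, had a log2 fold change of -0.61 (adjusted p = 0.401), with its lowest value, 522, again in Cre-positive hepatectomy replicate 2.

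Des encodes desmin, an intermediate filament protein, and Cygb encodes cytoglobin, a haem protein that binds oxygen and removes nitric oxide. Des was at 14.8 and 45.02 in Cre-positive and 45.2 and 42.0 in Cre-negative hepatectomy libraries, against 26.5 and 21.3 in Cre-positive and 31.7 and 22.4 in Cre-negative sham libraries. The other hepatectomy libraries exceeded all sham libraries, but Cre-positive hepatectomy replicate 1 was below all of them. The log2 fold change was 0.41 (SE 0.36, 95% interval -0.45 to 1.26, limma, adjusted p = 0.502), and 0.034 with GC-bin centring. Of 8 intermediate filament and associated genes, Des included and all tested, 1 rose and 0 fell, with a median of 0.75. The riser was Vim, encoding vimentin, a filament of mesenchymal cells.

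Cygb was at 42.6 and 65.3 in Cre-positive and 56.9 and 52.7 in Cre-negative hepatectomy libraries, against 37.1 and 28.0 in Cre-positive and 35.7 and 32.1 in Cre-negative sham libraries. All hepatectomy libraries lay above all sham libraries, at 54.4 ± 9.41 after hepatectomy and 33.2 ± 4.09 after sham (SD, n = 4 each). Cygb had a log2 fold change of 0.69 (SE 0.23, 95% interval 0.14 to 1.23), which did not pass (limma, adjusted p = 0.143). Cygb is GC-rich, at 58.8%, and with GC-bin centring its log2 fold change was 0.28 (adjusted p = 0.326). In the oxygen and radical handling list, which includes Cygb, 14 of 16 genes were tested, 1 rose and 0 fell, with a median of 0.20. The riser was Nqo1, a quinone reductase (log2 fold change 1.49, adjusted p = 0.0442).

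Ngfr encodes p75, a receptor for neurotrophins, and Hand2 a transcription factor that binds E-boxes. Ngfr had 14.6 and 22.3 in Cre-positive and 14.9 and 12.6 in Cre-negative hepatectomy libraries, against 24.5 and 8.31 in Cre-positive and 16.9 and 13.2 in Cre-negative sham libraries. The groups overlapped, and both extremes were Cre-positive libraries. The log2 fold change was 0.10 (SE 0.37, 95% interval -0.77 to 0.97, limma, adjusted p = 0.884), and it turned to -0.05 under median-of-ratios scaling, -0.25 under quantile normalization and -0.30 with GC-bin centring.

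Hand2 had 6.44 and 14.6 in Cre-positive and 5.34 and 14.0 in Cre-negative hepatectomy libraries, against 7.29 and 13.1 in Cre-positive and 7.64 and 12.4 in Cre-negative sham libraries. The spread within each group exceeded the difference between any 2 group means. Hand2 had a log2 fold change of -0.07 (SE 0.42, 95% interval -1.07 to 0.92, limma, adjusted p = 0.923), an interval that does not show equal levels. Among neurotrophin genes, Ngfr included, 13 of 15 listed symbols were tested, and 0 rose and 0 fell (1 at an unadjusted p under 0.05). The median was 0.10, which is the value of Ngfr itself. Among transcription factors of the liver mesenchyme, Hand2 included, 15 of 19 listed were tested, 0 rose and 0 fell, with a median of -0.20 (3 at an unadjusted p under 0.05).

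Within the 2 genotypes, 8 of the 9 genes had the same sign of change and Ngfr did not, but the sign in Cre-positive livers turned for Des with GC-bin centring (-0.19) and for Hand2 with a pseudocount of 10 (0.0094). In Cre-positive livers 0 of 9 passed (limma, background 0.943%; 2 at an unadjusted p under 0.05, against 13.5% of all genes), with a median of -0.29 for the 9 and 0.02 for all genes. That median rested on single libraries. It was 0.08 without hepatectomy replicate 1, where the median of all genes was 0.18, and -0.55 without hepatectomy replicate 2. It was -0.13 without sham replicate 1 and -0.56 without sham replicate 2. In Cre-negative livers 0 of 9 passed (background 1.11%; 4 at an unadjusted p under 0.05, against 21.3%), with a median of -0.65 for the 9 and 0.21 for all genes. Without overlap between the libraries, 3 of the 9 genes were lower and 1 higher in Cre-positive livers (all genes 19.5% and 23.9%), and 5 were lower and 2 higher in Cre-negative livers (all genes 23.3% and 39.7%). Colec10 had a log2 fold change of -2.67 in Cre-positive livers (SE 0.62, adjusted p = 0.126) and -1.96 in Cre-negative livers (SE 0.62, adjusted p = 0.153). Ecm1 had -1.30 and -1.17 (SE 0.38 each), and Lrat had -1.10 and -1.24 (SE 0.48 each), in Cre-positive and Cre-negative livers in that order. Cygb had 0.69 in Cre-positive and 0.68 in Cre-negative livers. Reln was the gene with the widest gap in the other direction, at -0.29 in Cre-positive livers (SE 0.28, adjusted p = 0.653) and -1.04 in Cre-negative livers (SE 0.28, adjusted p = 0.117).

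**Figure D3:**
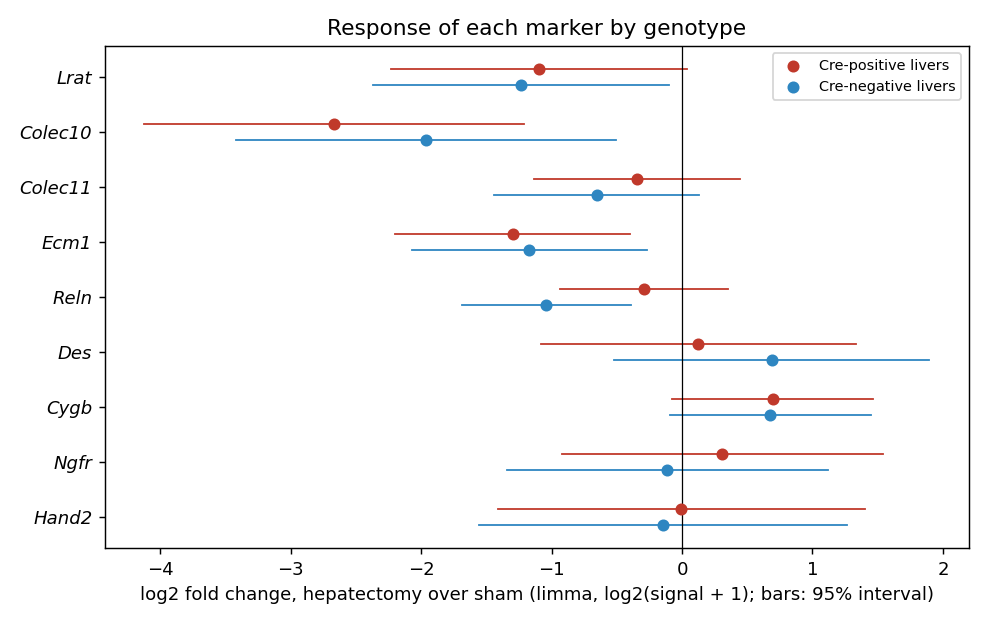
Log2 fold change of each gene after hepatectomy within Cre-positive livers (red, upper) and Cre-negative livers (blue, lower), with 95% intervals from limma and 2 libraries per group. The intervals of the 2 genotypes overlap for each of the 9 genes, and the Reln points lie at -0.29 and -1.04.

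The genotype comparisons asked whether the markers differed in livers labelled as lacking Pdgfrb in stellate cells. In hepatectomy livers 0 of 9 passed for Cre-positive against Cre-negative (limma, background 0.0182%; 0 at an unadjusted p under 0.05, against 18.3% of all genes). In sham livers 0 of 9 passed (background 0.00608%; 0 at an unadjusted p under 0.05, against 0.888%), and averaged over operations 0 of 9 passed (background 0.0122%; 0 at an unadjusted p under 0.05, against 8.53%). Reln was higher without overlap in Cre-positive hepatectomy livers, at 502 ± 42.4, than in Cre-negative hepatectomy livers, at 355 ± 47.6 (SD, n = 2 each). Its log2 fold change was 0.50 (95% interval -0.15 to 1.15, limma, adjusted p = 0.364), and 14.2% of all genes were higher without overlap in that comparison. None of the 9 was lower without overlap there, against 26.3% of all genes. In sham livers, Lrat (log2 fold change -0.61) and Colec11 (-0.32) were lower without overlap in Cre-positive than in Cre-negative libraries, as were 19.4% of all genes, and none of the 9 was higher without overlap, against 12.1%. Neither passed (limma, adjusted p = 1 for both).

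Colec10 in hepatectomy livers had a genotype log2 fold change of -0.99 (95% interval -2.44 to 0.47, limma, adjusted p = 0.409), and the value rested on which Cre-positive library was used. It was -2.03 without replicate 1 (adjusted p = 0.0158) and 0.05 without replicate 2, the library with low signal in GC-poor genes. The fit without replicate 1 called 2142 of 16443 genes for genotype in hepatectomy livers and the fit without replicate 2 called 63, against 3 with all libraries. In those fits the lone library was assumed to vary like the other groups. The difference of the hepatectomy responses, Cre-positive minus Cre-negative, passed for 0 of 9 genes (limma, background 0.0122%; 0 at an unadjusted p under 0.05, against 8.09%). It was 0.75 for Reln (95% interval -0.17 to 1.66, adjusted p = 0.664) and -0.70 for Colec10 (95% interval -2.76 to 1.35, adjusted p = 0.826).

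The isoform table gave 1 isoform for Lrat, Colec10, Colec11, Cygb, Ngfr and Hand2, 3 for Des, 11 for Ecm1 and 14 for Reln. Isoform shares were not tested. Ecm1-001 held a mean of 48.5% of the Ecm1 signal, between 45.1% and 53.6% in each library. Ecm1-010 held 0.708% and 1.40% in Cre-positive hepatectomy and 21.8% and 9.76% in Cre-negative hepatectomy libraries, against 0.345% and 1.39% in Cre-positive sham and 0.305% and 0.769% in Cre-negative sham libraries. Both Cre-negative hepatectomy libraries therefore stood above the other 6. Other Ecm1 shares also set these libraries apart: Ecm1-009 was above the other 6, and Ecm1-003, Ecm1-005, Ecm1-007 and Ecm1-008 were below them. Ecm1-003, for example, held 2.06% and 7.34% there. The lower Ecm1 level after hepatectomy was seen without Ecm1-010 too, since Ecm1-001, Ecm1-002 and Ecm1-003 were each lower in all 4 hepatectomy libraries.

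For reelin, Reln-002 held 29.1% and 38.9% of the signal in Cre-positive hepatectomy and 6.29% and 9.46% in Cre-negative hepatectomy libraries, against 19.9% and 18.7% in Cre-positive sham and 26.2% and 23.8% in Cre-negative sham libraries. In signal it was 154.5 and 183 in Cre-positive hepatectomy, and 20.2 and 36.8 in Cre-negative hepatectomy libraries. Reln-001 was at 273 and 178 in Cre-positive hepatectomy, against 214 and 235 in Cre-negative hepatectomy libraries, which overlap. After hepatectomy the signal of the genotypes thus stood apart in Reln-002 and overlapped in Reln-001. The share of Reln-001 stood apart, at 51.4% and 37.7% in Cre-positive and 66.7% and 60.5% in Cre-negative hepatectomy libraries. Reln-009 signal was also higher without overlap in Cre-positive hepatectomy libraries (27.7 and 48.9 against 0 and 17.3). Reln-013 (14.1 and 8.98 against 20.5 and 28.9) and Reln-202 (62.0 and 49.7 against 66.1 and 70.6) were lower there. Shares within a gene are estimates by the authors' software from short reads, and their error is not given.

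**Figure D4:**
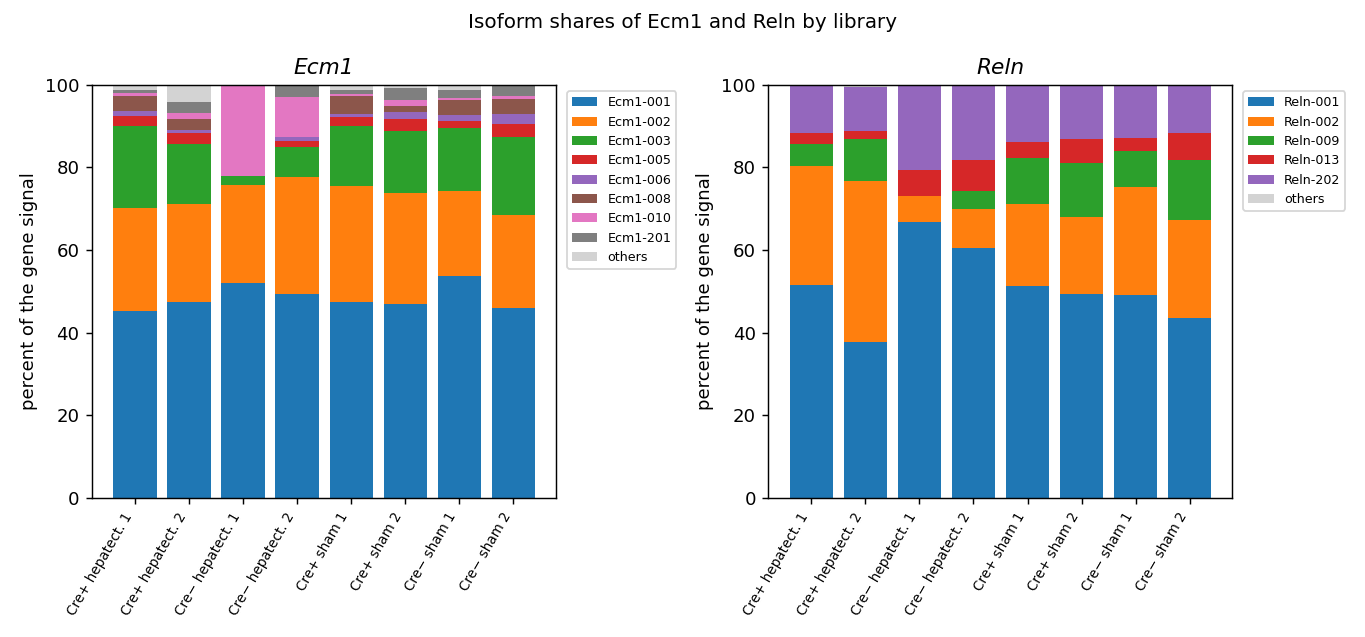
Percent of the Ecm1 (left) and Reln (right) signal in each isoform, with 1 bar per library from 0 to 100%, isoforms of a mean share of at least 1% in colour and the rest in grey. Ecm1-010 is wide in the Cre-negative hepatectomy libraries (21.8% and 9.76%), and Reln-002 is narrow in the same libraries (6.29% and 9.46%).

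Against other genes of the liver mesenchyme the 9 markers were set as a whole. Of 27 other genes of stellate cells and mesenchyme, all tested, 1 rose and 1 fell after hepatectomy, with a median of -0.17. The gene that fell was Ntn4, encoding netrin 4, a basement membrane protein (log2 fold change -1.28, SE 0.25, limma, adjusted p = 0.0358). Its signal was 20.1 and 27.8 in Cre-positive and 11.4 and 11.9 in Cre-negative hepatectomy libraries, against 44.3 and 37.8 in Cre-positive and 34.9 and 53.5 in Cre-negative sham libraries. Of 24 activation and matrix genes, 5 rose and 0 fell, with a median of 0.80. They were the collagen genes Col1a1 (log2 fold change 2.30, adjusted p = 0.022), Col3a1 (1.14, adjusted p = 0.0347) and Col5a2 (1.17, adjusted p = 0.0458), the fibrillin gene Fbn1 (0.92, adjusted p = 0.0377) and Vim (1.10, adjusted p = 0.0349).

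Markers of other cell types moved in the same livers. Of 15 endothelial markers of the sinusoid, 0 rose and 3 fell (Oit3 -1.31, Kdr -1.13 and Fcgr2b -1.03 on the log2 scale, limma, adjusted p = 0.022, 0.0413 and 0.0407). Their median was -0.47, with a summed signal of 2666 to 5989 after hepatectomy and 5544 to 6990.1 after sham. The genotypes were unlike: the endothelial median was -0.87 in Cre-negative livers (14 negative) and -0.20 in Cre-positive livers (9 negative). The medians of all genes there were 0.21 and 0.02. Of 13 hepatocyte markers tested, 0 rose and 2 fell, Cyp2e1 (-1.60, adjusted p = 0.0108) and Tat (-1.08, adjusted p = 0.0356), with a median of -0.66. Alb was listed at 0 in all libraries but Cre-negative hepatectomy replicate 1, and Serpina1a was listed at 0 in 2 libraries. The summed signal of the other 11 hepatocyte markers was 236358 to 582187 after hepatectomy and 553399 to 652245 after sham, and the groups overlapped. The summed signal of the 9 stellate markers was 1228 to 1831 after hepatectomy and 2297 to 3129 after sham, a sum led by Ecm1 and Reln. Of 7 lymphatic endothelial markers, one of them Reln, 0 rose and 0 fell (4 at an unadjusted p under 0.05). Of the 7, 2 had a positive and 5 a negative log2 fold change. The median was -0.67, which is the value of Reln itself. Their summed signal, led by Reln, was 657 to 1021 after hepatectomy and 1037 to 1422 after sham. Of 11 smooth muscle markers, one of them Des, 0 rose and 0 fell (4 at an unadjusted p under 0.05), with a median of 0.78 and a summed signal of 782 to 1565 after hepatectomy and 1202 to 1414 after sham. Of 12 proliferation genes 11 rose and 0 fell, with a median of 4.18. The part of these cell types in the values of the 9 genes was not tested.

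**Figure D5:**
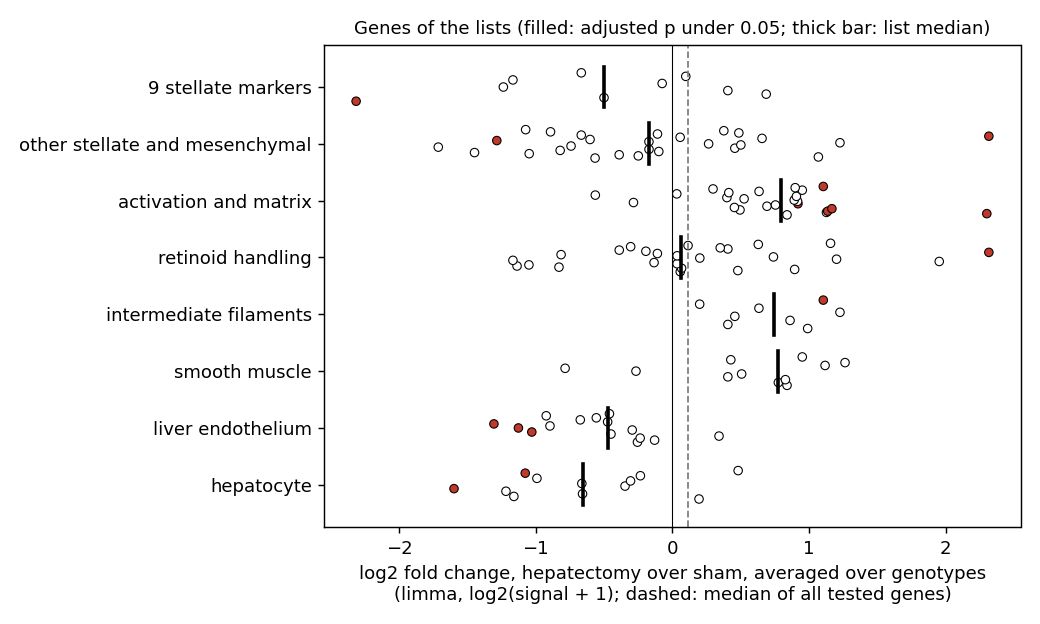
Log2 fold change, hepatectomy over sham, averaged over genotypes (limma), of each tested gene in 8 lists, with a thick bar at each list's median, filled points for an adjusted p under 0.05 and a dashed line at the median of all tested genes (0.12). The medians are -0.50 for the 9 stellate markers, -0.47 for liver endothelium, -0.66 for hepatocyte and 0.80 for activation and matrix genes. Alb, listed at 0 in 7 of the 8 libraries, is counted in the hepatocyte median but not drawn.

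The genes whose profile over the 8 libraries was most like each marker were found by the mean absolute difference of centred log2(signal + 1) values, and are given as a description. For Colec10 they were 2810007J24Rik (0.237), Nox4 (0.282) and Sult1d1 (0.323), beside a range of 4.12 for Colec10 itself. For Ecm1 they were Lama4 (0.133), Arhgef37 (0.182) and Scnn1a (0.183), and those of Lrat included Enpp2 (0.162) and Pptc7 (0.168). For Reln they were Cyp2c44 (0.0797), Klb (0.111) and Odc1 (0.118), and for Colec11 they were Stat5b (0.0799), Plekhb1 (0.112) and Vezt (0.113). For Cygb they were Rpl12 (0.0488), Rps16 (0.0606) and Ptrf (0.0659), and for Des they were Zfp641 (0.114), Lmod1 (0.128) and Vwa1 (0.132). For Ngfr they were Csf1 (0.133), Shq1 (0.159) and Ptpn1 (0.171), and for Hand2 they were Slc25a14 (0.159), D1Bwg0212e (0.171) and Pgam2 (0.174). No other marker of the 9 was among the genes found. The libraries are shared by all genes, so likeness includes whatever acts on a whole library.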

How the data were processed

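RNA of whole mouse liver was sequenced in 8 libraries, 2 for each of 4 groups that the sample titles give. The authors deposited 2 tables of normalized signal, one of 34465 genes and one of 96792 isoforms. The submitters' processing notes name TopHat, Cufflinks, mm9 and NCBIM37. Versions and the normalization are not given in the sources used here. FPKM had been assumed when the test was chosen. The values are not identified as such, and limma on log values was kept. A gene equalled the sum of its isoforms within a relative gap of 7.64e-08 for values over 1. Whether the signal is per length is unknown, so levels are not compared between genes. Depth is unknown, so no counting interval is given. Exact zeros can be failed estimates.

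Log values, log2(signal + 1), were tested with limma 3.58.1 (R 4.3.3), a scale that understates changes of low genes. The fit took the 16443 genes whose mean signal reached 1, with 4 group means and an intensity trend in the moderated spread (4 residual and 3.25 prior degrees of freedom). P-values were two-sided and adjusted by Benjamini-Hochberg over these genes, with 0.05 as the threshold. Contrasts compared hepatectomy with sham and Cre-positive with Cre-negative livers, each within groups and averaged, and gave the difference of responses. The script was tested on simulated data. GC content came from the longest GENCODE M21 transcript, for 15867 of 16443 genes. Promoters were RefSeq windows of 250 bases (GRCm38.p6).

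The 9 genes and 20 lists, the 9 included, were chosen with earlier results of these data known. The text names all 9 genes, Pdgfrb and Gfap, up to 3 genes of each list past the threshold by smallest adjusted p, or otherwise up to 2 of highest mean, and the 3 genes most alike each marker. Col5a2 and Fbn1 are named beyond that rule, to account for all 5 genes counted, and Alb for its zeros. A few genes that the rule would name are not reported here. Alternatives were the pseudocount, the filter, the scaling, the trend, the groups fitted, each library left out and, added after seeing the data, centring within 20 GC bins.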

Additional observations from a re-analysis of the deposited data

How the results depend on the processing

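For hepatectomy against sham averaged over genotypes, 1 of the 9 genes passed. The count was 0 with no filter on low values (Colec10, limma, adjusted p = 0.0912), 2 with a mean signal of at least 10 and 2 under median-of-ratios scaling. It was 3 with GC-bin centring, an alternative chosen after seeing the data (Colec10, Colec11 and Ecm1). Of all genes in these fits, 1.71%, 5.47%, 3.85% and 7.17% passed in that order, against 4.49% in the main fit. Leaving out one library gave 0 to 6, in fits that called 134 to 5369 of all 16443 genes. Within Cre-negative livers the count of 0 became 2 with GC-bin centring, and 0 to 2 with a library left out. Within Cre-positive livers it became 2 with GC-bin centring, and 0 to 2 with a library left out. With a library left out, the counts above 0 came without one or the other Cre-positive hepatectomy library, in fits that called 1638 and 1657 genes in Cre-negative livers and 135 and 3459 in Cre-positive livers. For genotype it was 0 to 1 with a library left out, both in hepatectomy livers and averaged over operations. The call in hepatectomy livers came from a fit that called 2142 genes. The cause was not tested. The other counts did not change in the settings run. With GC-bin centring, 3.11% of all genes passed within Cre-negative and 1.94% within Cre-positive livers, against 1.11% and 0.943% in the main fit. The median of all genes, 0.12 for the averaged hepatectomy contrast, was -0.03 under median-of-ratios scaling or quantile normalization.

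Signs turned for these genes. Averaged over genotypes, Ngfr was -0.051 under median-of-ratios scaling, -0.25 under quantile normalization, -0.30 with GC-bin centring and -0.26 to 0.46 with a library left out, and Hand2 was -0.38 to 0.24 with a library left out. In Cre-negative livers, with a library left out, Ngfr was -0.28 to 0.053 and Hand2 -0.76 to 0.48. In Cre-positive livers, Des was -0.19 with GC-bin centring and Hand2 0.0094 with a pseudocount of 10. With a library left out there, Des was -0.64 to 0.89, Hand2 -0.54 to 0.53, Ngfr -0.42 to 1.04, Reln -0.60 to 0.019 and Colec11 -0.77 to 0.082. Colec10 was -2.03 to 0.053 between genotypes in hepatectomy livers and -1.75 to 0.34 for the difference of responses. The cause was not tested.

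With 2 libraries per group and unknown depth, low signals such as those of Lrat, Ngfr and Hand2 carry wide intervals. No paired analysis was possible because the labels number the libraries 1 to 8 and the groups share no number.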

Other observations

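Further marker lists were read in hepatectomy against sham, averaged over genotypes. Of 12 Kupffer cell markers tested, 0 rose and 0 fell by limma (4 at an unadjusted p under 0.05), with a median log2 fold change of 0.37. Cd5l, a protein secreted by these macrophages, was at 1420.0 and 1166 in Cre-positive and 426 and 405 in Cre-negative hepatectomy libraries, against 417 and 411 in Cre-positive and 289 and 556 in Cre-negative sham libraries (log2 fold change 0.84, adjusted p = 0.093). Both Cre-positive hepatectomy libraries thus stood above the other 6. Clec4f did the same, at 886 and 965 against at most 654 in the other 6. In Cre-positive against Cre-negative hepatectomy livers, all 12 Kupffer log2 fold changes were positive, with a median of 0.83 (all genes -0.23). Of these, 0 passed and 7 were at an unadjusted p under 0.05 (limma, 18.3% of all genes). Of 9 cholangiocyte markers tested, 0 rose and 0 fell after hepatectomy (2 at an unadjusted p under 0.05), with a median of 0.75. The summed signal of the 10 listed was 604 to 1812 after hepatectomy and 471 to 569.9 after sham, a sum led by Spp1. Spp1 is also in the activation and matrix list. It was at 1714 and 436 in Cre-positive and 549 and 383 in Cre-negative hepatectomy libraries. In sham libraries it was at 371 and 401 in Cre-positive and 393 and 461 in Cre-negative livers, so the operations overlapped.

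Of 10 portal fibroblast markers, 0 rose and 0 fell (2 at an unadjusted p under 0.05), with a median of 0.15. The elastin gene Eln had a log2 fold change of 0.50 (adjusted p = 0.387). Of 11 Schwann cell and neural markers 6 were tested, and 0 rose and 0 fell by limma (0 at an unadjusted p under 0.05), with a median of 0.52. Dbh, a marker of sympathetic neurons, was at 0 in each library.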
